A study of Homo sapiens with 24 samples.

Results

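Day 3 of TAp63 induction was compared with day 0 in TYUC-1, a human cell line from a neuroendocrine carcinoma of the esophagus that grows in suspension. The comparison takes the 3 libraries titled TAp63 day 3 and the 3 titled TAp63 day 0, 6 of the 24 RNA-seq libraries of a series that asks how p63 bears on squamous against neuroendocrine identity. Both groups carry the i-TAp63 genotype and belong to a 6 day course. Day 3 cells had DMSO for 3 days followed by doxycycline at 1 µg/ml for 3 days, and day 0 cells had DMSO for all 6 days. A treatment label also names EPZ-6438, which blocks the polycomb enzyme EZH2, with a day count equal to that of doxycycline. The labels do not settle whether it was present, so the groups would differ in it as well, and its part and that of TAp63 cannot be told apart. Cells given doxycycline without a construct were not analysed here, and whether the line is 1 clone is not given in the sources used here. The other libraries are days 1 and 6 of the same line and the same 4 days of a line with ΔNp63.

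TP63 encodes a transcription factor of the p53 family that is required for stratified squamous epithelia such as that of the esophagus. TAp63 isoforms start at the upstream promoter and carry an N-terminal transactivation domain, which ΔNp63 isoforms lack. Both bind DNA as tetramers through half-sites shared with p53, and in normal esophagus it is ΔNp63 that marks the basal layer.

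Totals in the 6 libraries ran from 6755662 to 22019974 counts. The series calls its replicates biological and does not state how separate the cultures were, so the spread among replicates may be technical. Each p-value and SE rests on that spread in all libraries of its model. For day 3 against day 0 the model also held days 1 and 6 of the line. In bulk RNA, fewer cells of a type and less RNA per cell cannot be told apart. Markers of the labelled cell type were present in part. CHGB, a protein of secretory granules, had 8.53, 20.2 and 20.6 CPM (counts scaled to the TMM-adjusted library size) at day 3, against 19.5, 18.7 and 21.9 CPM at day 0. INSM1 and CHGA stayed under 1 CPM in all 6 libraries. POU2F3, the master factor of tuft cells, was present in all 6 libraries, at 175, 171 and 204 CPM at day 3, against 193, 216 and 245 CPM at day 0. Fetal globin RNA differed by replicate number in both groups: HBG2 had 29.7, 6.91 and 0.515 CPM in replicates 1, 2 and 3 of day 3, against 24.6, 1.06 and 0.425 CPM in those of day 0.

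A search of promoters for the p53-family half-site consensus of 10 bases covered the 250 bases before each gene's start in RefSeq (GRCh38.p14). Of the 77 genes called higher at day 3 other than TP63, 52 had a promoter there, and 5 of them (9.62%) held the half-site, against 4.61% of the 11415 tested genes with a promoter and 5.53% of all promoters. A looser motif, 2 half-site cores side by side (CNNGNNNNNNCNNG, read on both strands and overlapping the half-site where that was paired), stood in 76.9% of the 52, against 82.8% of tested genes with a promoter and 68.3% of all promoters. Of the 6 genes called lower, 4 had a promoter and 0 of these held the half-site. The 3 sequences below belong to the half-site holders with the largest rises, the other holders being LITAF and TTC39A, and capitals mark the half-site. A match describes the letters only. SLC16A12 (chr10:89535595-89535844, minus strand) has it 135 bases before the start, HTR3E (chr3:184099929-184100178, plus strand) at 221 bases, where the start is that of a RefSeq transcript within the span counted for HTR3E, not its first base, and S100A16 (chr1:153613138-153613387, minus strand) at 235 bases.
SLC16A12: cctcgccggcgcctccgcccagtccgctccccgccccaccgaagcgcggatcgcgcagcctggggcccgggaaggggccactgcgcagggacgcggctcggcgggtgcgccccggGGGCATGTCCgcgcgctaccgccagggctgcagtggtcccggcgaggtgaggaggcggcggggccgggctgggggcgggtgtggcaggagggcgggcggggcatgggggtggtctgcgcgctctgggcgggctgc
HTR3E: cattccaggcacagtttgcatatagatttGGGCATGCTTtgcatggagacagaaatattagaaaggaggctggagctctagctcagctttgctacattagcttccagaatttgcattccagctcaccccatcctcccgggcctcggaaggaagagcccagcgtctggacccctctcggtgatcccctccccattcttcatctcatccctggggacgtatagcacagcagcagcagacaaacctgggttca
S100A16: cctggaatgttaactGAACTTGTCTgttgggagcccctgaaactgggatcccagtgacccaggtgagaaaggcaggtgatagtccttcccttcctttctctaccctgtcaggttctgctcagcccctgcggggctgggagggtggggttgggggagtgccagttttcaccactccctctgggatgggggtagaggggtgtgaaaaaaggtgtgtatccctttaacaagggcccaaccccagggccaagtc

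At day 3 the response was mostly of rises. TP63 led in strength of evidence, and with it rose a set of genes that were nearly silent before induction, among them the transporter SLC16A12, the channel gene CALHM3, the cytokine receptor IL23R and the glypican GPC4. Keratin 13 and other genes of squamous differentiation rose less, and 6 genes fell, the tuft cell kinase BMX and integrin α6 among them. Of 15056 genes tested, 84 were called at an adjusted p under 0.05 (0.558%; edgeR with Benjamini-Hochberg adjustment): 78 higher (0.518%) and 6 lower (0.0399%). Of the genes called higher, 64 rose at least 2-fold and 19 at least 8-fold, while 1 of the 6 lower genes, ART3, fell at least 2-fold. The median log2 change was 1.77 over the genes called higher and -0.01 over all genes tested. Day 0 means were under 1 CPM for 24 of the 78 and at least 10 CPM for 26. With the replicate number as a block edgeR called 421 genes (2.8%), 334 higher (2.22%) and 87 lower (0.578%), and all 84 were among them. The main model left out this block, although same-numbered libraries correlated, so genes not called in it may be called with the block. Without 1 library the count was 31 (day 0 replicate 2), 39 (day 0 replicate 3) and 51 (day 3 replicate 2 or replicate 3). In all 84 called genes the day 3 and day 0 libraries did not overlap, as in 2009 of the 15056 genes tested (13.3%). Lack of overlap was also a condition for naming the largest rises and falls, so it adds no support for them. The plot of all genes tested shows the asymmetry.

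**Figure D1:**
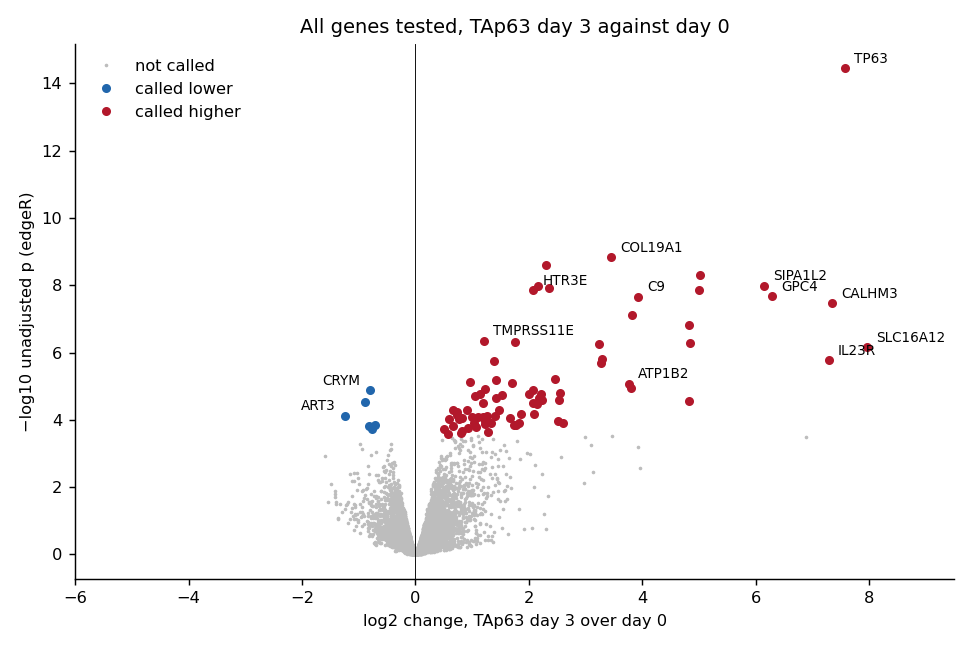
Log2 change (x axis, TAp63 day 3 over day 0) against −log10 of the unadjusted edgeR p (y axis) for the 15056 genes tested. The 78 genes called higher reach a log2 change of 7.96 (SLC16A12, a fitted value that depends on the prior count, as day 0 had 0 counts), whereas the 6 called lower reach -1.25 (ART3).

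The induced gene itself came first. TP63 (hg38 chromosome 3, 189596746 to 189897279) had 454, 598 and 626 CPM at day 3, against 2.94, 2.9 and 2.98 CPM at day 0. The groups did not overlap, and the log2 change was 7.57 ± 0.186 (SE; edgeR adjusted p = 5.37e-11). Replicate 1 of day 3 was the lowest of its group. Counts were taken over whole transcript spans and do not tell TAp63 from ΔNp63 or the construct from the locus.

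Transporters and channels gave several of the largest rises. SLC16A12, a monocarboxylate transporter family member that carries creatine (chromosome 10, 89430299 to 89535594), had 1.87, 2.41 and 2.32 CPM at day 3, against 0 counts in every day 0 library. It was at least 34.6-fold higher, with day 0 set to 3 counts over the group (edgeR adjusted p = 0.000557). Its promoter, printed above, holds the half-site. CALHM3, a subunit of the taste cell channel that releases ATP (chromosome 10, 103472804 to 103479240), had 4.58, 5 and 5.41 CPM at day 3, against 0, 0 and 0.0532 CPM at day 0. That is 196 counts against 1 count, a ratio of 229 with a 95% counting interval of 40.6 to 9078. TRPM6, a magnesium channel with a kinase domain (chromosome 9, 74722495 to 74887921), had 3.64, 4.46 and 3.6 CPM at day 3, against 0.155, 0.145 and 0.106 CPM at day 0 (log2 change 4.82 ± 0.477, edgeR adjusted p = 0.000161). ATP1B2, the β2 subunit of the sodium pump (chromosome 17, 7646627 to 7657771), was already expressed, with 145, 154 and 177 CPM at day 3, against 10.4, 12.7 and 11.8 CPM at day 0. Its log2 change was 3.76 ± 0.534 (edgeR adjusted p = 0.00458), and in none of these 4 genes did the groups overlap. TRPM6 and ATP1B2 were the genes called among 16 tested of the ion transport list, whose median log2 change was -0.00 beside -0.01 over all genes. Of all genes, 0.518% were called higher.

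Of genes that encode receptors, 4 are described here. IL23R, the interleukin 23 receptor subunit (chromosome 1, 67166454 to 67259967), had 22.5, 25.7 and 30.1 CPM at day 3, against 0.773, 0.0484 and 0.0532 CPM at day 0. Its log2 change of 7.29 ± 0.894 (edgeR adjusted p = 0.0012) lay between 6.66 and 8.78 when any 1 of the 6 libraries was left out, and replicate 1 of day 0 held most of the day 0 reads. ALK, a receptor tyrosine kinase gene (chromosome 2, 29192774 to 29921586), had 4.68, 4.87 and 3.86 CPM at day 3, against 0.155, 0.0484 and 0.213 CPM at day 0, or 182 against 6 counts (log2 change 5.01 ± 0.406, edgeR adjusted p = 2.3e-05; 4.46 to 5.75 with any 1 library left out). FGFR1, a fibroblast growth factor receptor (chromosome 8, 38411138 to 38468834), was abundant throughout, with 82.6, 74.2 and 82.9 CPM at day 3, against 54.7, 43.8 and 46.4 CPM at day 0. Its log2 change was 0.73 ± 0.126 (edgeR adjusted p = 0.0172), a call lost without replicate 2 or 3 of day 0 or replicate 1 or 3 of day 3. ALK and FGFR1 were the 2 genes called among 26 tested growth factor receptor kinases, 14 of which lay above 0, against 48.4% of all genes. HTR3E, a serotonin receptor subunit kept in the tuft cell list (chromosome 3, 184097064 to 184106995), had 74.3, 86.9 and 76.2 CPM at day 3, against 20.6, 17.6 and 18.5 CPM at day 0. Its log2 change was 2.08 ± 0.168 (edgeR adjusted p = 2.3e-05), and the groups of all 4 genes were separate.

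Of 26 tested heparan sulfate proteoglycan genes 3 were called higher, beside 0.518% of all genes. This list, like the others, was chosen with earlier results of these data known, so its count is no support for a family response. GPC4, a glypican held at the membrane by a lipid anchor (chromosome X, 133300103 to 133415489), had 6.55, 8 and 8.24 CPM at day 3, against 0.309, 0 and 0.106 CPM at day 0. The log2 change was 6.29 ± 0.529 (edgeR adjusted p = 2.96e-05), on 303 against 4 counts, and lay between 5.48 and 7.01 with any 1 library left out. HS6ST3, a heparan sulfate 6-O-sulfotransferase (chromosome 13, 96090839 to 96839562), had 3.64, 3.41 and 3.09 CPM at day 3, against 1.7, 1.11 and 1.54 CPM at day 0 (log2 change 1.27 ± 0.225, edgeR adjusted p = 0.0205). SDC2, a transmembrane syndecan (chromosome 8, 96493813 to 96611790), had 366, 329.7 and 327 CPM at day 3, against 243, 240.2 and 241 CPM at day 0 (log2 change 0.50 ± 0.0971, edgeR adjusted p = 0.0362). All 3 genes were separate between the groups, but the call of SDC2 was lost without any 1 of the 6 libraries and that of HS6ST3 without any 1 but replicate 1 of day 0. Of the 26 tested, 16 lay above 0, against 48.4% of all genes, and the median log2 change was 0.09. The block added SDC1 (0.49) and, lower, XYLT1, which starts the heparan sulfate chain and had 0.416, 0.318 and 0.257 CPM at day 3, against 1.39, 0.726 and 1.12 CPM at day 0.

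**Figure D2:**
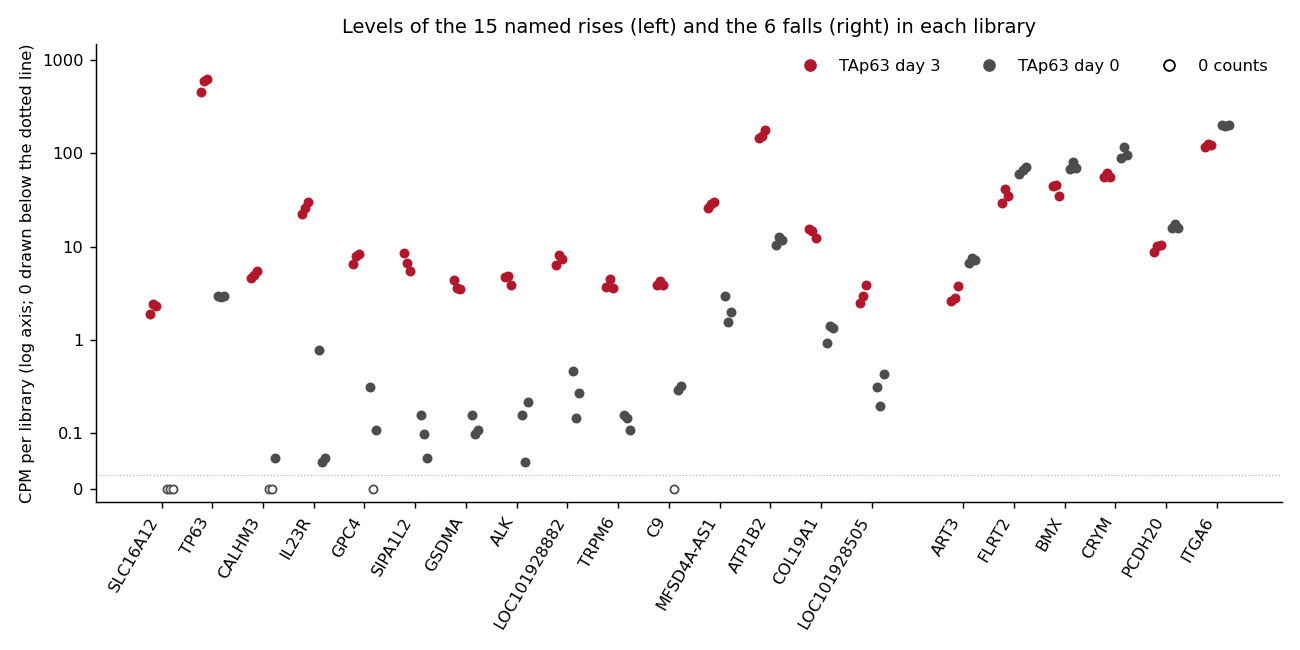
CPM in each library (log axis, with 0 drawn below the dotted line) of TAp63 day 3 (red, left of each pair) and day 0 (grey, right) for the 15 rises chosen by size and the 6 falls. No gene overlaps between the groups, which was a condition of the choice. Open circles are libraries with 0 counts, as in all 3 of SLC16A12 at day 0.

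Other genes with large rises had varied roles. SIPA1L2, of a family of Rap GTPase-activating proteins (chromosome 1, 232397966 to 232515608), had 8.42, 6.64 and 5.41 CPM at day 3, against 0.155, 0.0968 and 0.0532 CPM at day 0 (log2 change 6.15 ± 0.487, edgeR adjusted p = 2.3e-05). GSDMA, a pore-forming gasdermin of the epidermis (chromosome 17, 39963004 to 39977768), had 4.37, 3.59 and 3.47 CPM at day 3, against 0.155, 0.0968 and 0.106 CPM at day 0 (log2 change 5.01 ± 0.373, edgeR adjusted p = 1.81e-05). C9, the last component of the complement membrane attack complex (chromosome 5, 39284141 to 39364495), had 3.85, 4.23 and 3.86 CPM at day 3, against 0, 0.29 and 0.319 CPM at day 0 (log2 change 3.92 ± 0.33, edgeR adjusted p = 2.96e-05). Each had separate groups, and SIPA1L2 and GSDMA rested on 4 and 5 counts at day 0. COL19A1, a collagen chain associated with fibrils (chromosome 6, 69866556 to 70212467), had 15.4, 14.7 and 12.2 CPM at day 3, against 0.927, 1.4 and 1.33 CPM at day 0 (log2 change 3.46 ± 0.233, edgeR adjusted p = 1.1e-05). Of the noncoding genes LOC101928882 rose by 4.85, MFSD4A-AS1 by 3.82 and LOC101928505 by 3.28 on the log2 scale. MFSD4A-AS1 had 26.1, 28.6 and 30.1 CPM at day 3, against 2.94, 1.55 and 1.97 CPM at day 0. It overlaps MFSD4A on the opposite strand, which was called too (log2 change 2.47), and counts without strand cannot tell the pair apart.

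Genes of squamous differentiation moved less. Of 30 tested squamous differentiation genes 4 were called higher and 0 lower, 21 lay above 0, and the median log2 change was 0.33. Over all genes tested, 0.518% were called higher and 48.4% lay above 0. KRT13, a keratin of suprabasal esophageal cells (chromosome 17, 41500981 to 41505612), had 36.9, 22.1 and 22.7 CPM at day 3, against 12.8, 8.03 and 9.3 CPM at day 0 (log2 change 1.47 ± 0.249, edgeR adjusted p = 0.0159). Replicate 1 was the highest of both groups, and the call was lost without replicate 2 or 3 of day 0 or replicate 1 of day 3. EMP1, an epithelial membrane protein of differentiating squamous cells (chromosome 12, 13196726 to 13219941), had 30.8, 39.8 and 36.5 CPM at day 3, against 10.04, 11.7 and 10.8 CPM at day 0 (log2 change 1.71 ± 0.242, edgeR adjusted p = 0.00442). S100A16, a calcium-binding protein (chromosome 1, 153606883 to 153613137), had 43, 35.7 and 29.6 CPM at day 3, against 15, 14.2 and 12.8 CPM at day 0 (log2 change 1.38 ± 0.169, edgeR adjusted p = 0.0012). Its neighbor S100A14 (chromosome 1, 153614256 to 153616325), of the same family, had 12.4, 14.6 and 16.9 CPM at day 3, against 5.87, 5.76 and 6.27 CPM at day 0 (log2 change 1.28 ± 0.255, edgeR adjusted p = 0.041), and lost its call without any 1 library. None of the 4 overlapped between the groups. With the block 11 of the 30 were called, all higher, beside 2.22% of all genes called higher with the block. SPRR3, CNFN, PPL, CSTB, KLK7, KLK11 and PADI3 joined the 4. Below 0, and called in neither run, were KRT4 (-0.01), CRNN (-0.10), SPRR1A (-0.14), SPRR2A (-0.04) and SPRR1B (-0.54, with separate groups). PADI1 (-0.38), S100A9 (-0.30), SPINK5 (-0.14) and ELF3 (-0.14) lay below 0 as well and were not called either.

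Basal squamous genes did not rise as a group. Of 24 tested, 0 were called higher and 1, ITGA6, lower. Above 0 lay 14, against 48.4% of all genes, and the median log2 change was 0.12. KRT5, the basal keratin (chromosome 12, 52514575 to 52520394), was too low to be tested, with 0.624, 0.637 and 0.129 CPM at day 3, against 0.464, 0.387 and 0.638 CPM at day 0. KRT14 stayed under 0.3 CPM in all 6 libraries, and TRIM29 stood at 24.2, 31.1 and 38.1 CPM at day 3, against 32.6, 22.4 and 25.2 CPM at day 0 (edgeR adjusted p = 0.985). ITGA6, the α6 integrin of hemidesmosomes (chromosome 2, 172427336 to 172506458), had 117, 126 and 123 CPM at day 3, against 202, 197 and 201 CPM at day 0. Its log2 change was -0.72 (SE 0.135; edgeR adjusted p = 0.0293) with separate groups, a call lost without any 1 library. With the block KRT15 (0.66), NGFR (3.14), ITGA3 (0.55) and CAV1 (1.41) were called higher and DLX5 lower beside ITGA6. In the hemidesmosome and basement membrane list, which shares ITGA6, 1 of 21 genes was called, and with the block CD151 (0.43), HSPG2 (1.11), AGRN (0.41) and ITGA3 were called higher. AGR2, a protein disulfide isomerase of secretory cells (chromosome 7, 16791811 to 16804999), was the gene called among 7 columnar markers, with 20.9, 29.8 and 25.5 CPM at day 3, against 11.4, 11.3 and 11.9 CPM at day 0. Its log2 change was 1.15 ± 0.174 (edgeR adjusted p = 0.00712; 0.0575 without replicate 2 of day 0).

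The other falls were of single genes. ART3, of the ADP-ribosyltransferase family (chromosome 4, 76011180 to 76112802), had 2.6, 2.82 and 3.73 CPM at day 3, against 6.64, 7.55 and 7.12 CPM at day 0 (log2 change -1.25 ± 0.22, edgeR adjusted p = 0.0204). FLRT2, a membrane protein that binds guidance receptors (chromosome 14, 85530025 to 85654428), had 29.3, 41.8 and 34.9 CPM at day 3, against 59.8, 66.8 and 70.9 CPM at day 0 (log2 change -0.89 ± 0.144, edgeR adjusted p = 0.0103). BMX, a Tec family kinase (chromosome X, 15500807 to 15556519), had 44.4, 45.3 and 35 CPM at day 3, against 68.5, 80.6 and 70.2 CPM at day 0 (log2 change -0.81 ± 0.154, edgeR adjusted p = 0.0299). The groups were separate in each, and in the remaining falls. CRYM, a thyroid hormone-binding crystallin (chromosome 16, 21258521 to 21303062), had 56.3, 62 and 55.5 CPM at day 3, against 89.6, 118 and 96.2 CPM at day 0 (log2 change -0.81 ± 0.12, edgeR adjusted p = 0.00616). PCDH20, a protocadherin (chromosome 13, 61409686 to 61415522), had 8.63, 10.1 and 10.3 CPM at day 3, against 15.9, 17.5 and 15.8 CPM at day 0 (log2 change -0.76 ± 0.148, edgeR adjusted p = 0.0351). CRYM kept its call without any 1 library. BMX and PCDH20 lost theirs each time. ART3 lost it without replicate 2 or 3 of day 0 or replicate 1 or 2 of day 3. FLRT2 lost it without replicate 2 or 3 of day 0 or replicate 3 of day 3. In a model of all 24 libraries CRYM lost its call (edgeR adjusted p = 0.184). Of the other named genes, ART3, FLRT2, PCDH20, ITGA6, KRT13, S100A14, AGR2, FGFR1 and SDC2 lost theirs in that model too.

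Tuft cell genes, and neuroendocrine genes, which belong to the labelled cell type and were present in part, were counted next. Of 20 tested tuft cell genes HTR3E was called higher and BMX lower, 8 lay above 0, and the median log2 change was -0.15. Over all genes tested, 0.518% were called higher and 0.0399% lower, and 48.4% lay above 0. POU2F3 itself was not called (log2 change -0.25 ± 0.13, edgeR adjusted p = 0.82), and the block added PTGS1 higher and ALOX5 and LRMP lower. Of 19 tested neuroendocrine genes edgeR called 0, with 1 higher and 4 lower at an unadjusted p under 0.05, and 5 lay above 0. Over all genes tested, 6.78% had an unadjusted edgeR p under 0.05, both directions together. NEUROD1, a proneural factor, had 1.98, 3 and 2.19 CPM at day 3, against 2.63, 2.61 and 2.5 CPM at day 0 (log2 change -0.07 ± 0.304, edgeR adjusted p = 0.999). SYP, the vesicle protein synaptophysin, had 4.37, 3.77 and 3.73 CPM at day 3, against 4.17, 4.26 and 4.41 CPM at day 0 (log2 change -0.12 ± 0.208, edgeR adjusted p = 0.999). The groups overlapped in both. The block called UCHL1 (-0.32) and PROX1 (-0.47) lower. EZH2, the target of the inhibitor named in the labels, had 189, 161 and 148 CPM at day 3, against 206, 196 and 192 CPM at day 0 (log2 change -0.25 ± 0.127, edgeR adjusted p = 0.813), and 0 of 23 polycomb genes were called, with 1 at an unadjusted p under 0.05 and 0 with the block.

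**Figure D3:**
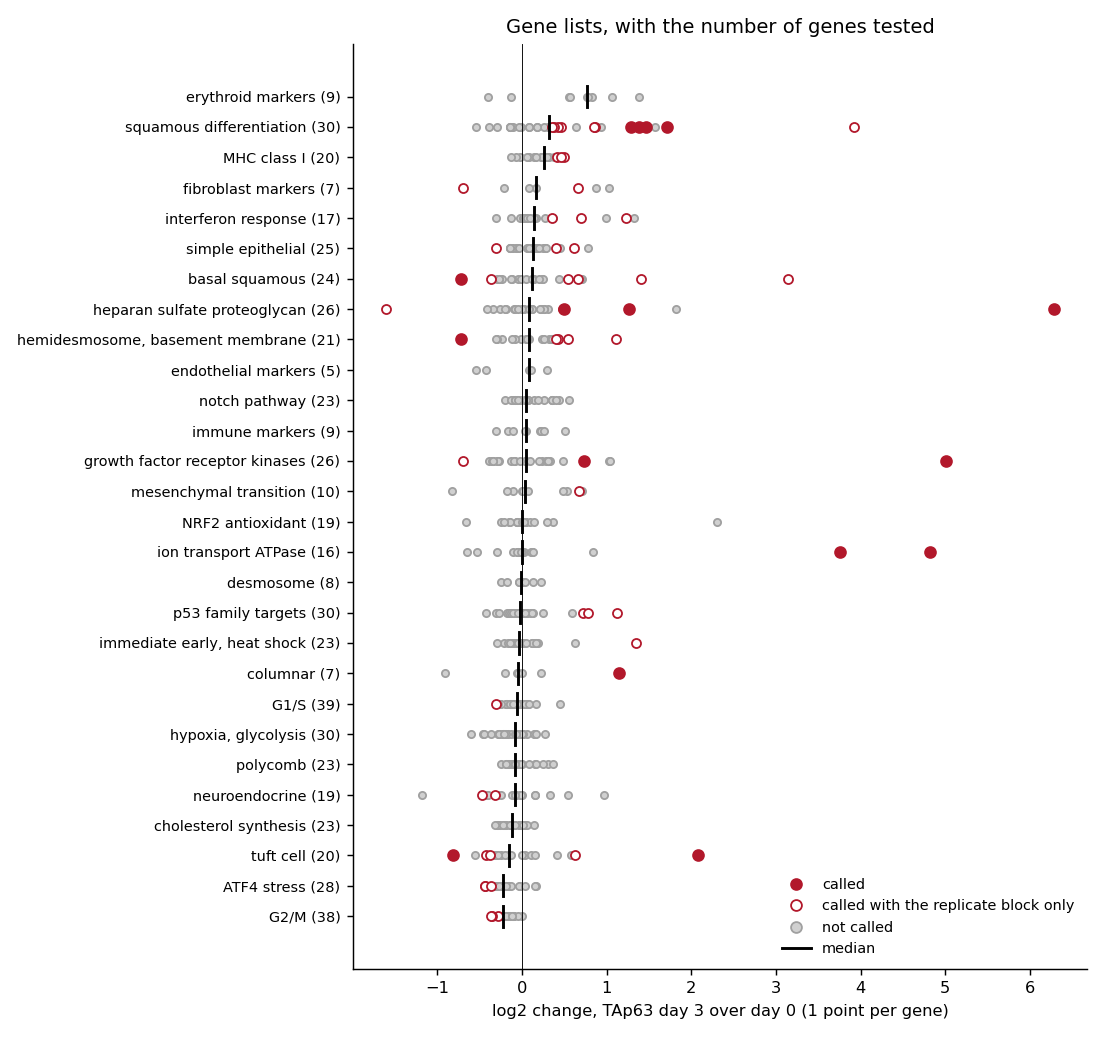
Log2 change of each tested gene (x axis, TAp63 day 3 over day 0) in 28 gene lists (y axis, number tested in brackets), with the median as a black bar. Filled red points are genes called, open red points those called with the replicate block alone. Squamous differentiation genes have a median of 0.33 and G2/M genes one of -0.23.

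Several lists lay to one side of 0 with no gene called. Genes of a list may vary together, so the shares below are descriptions and not tests. Of 38 G2/M genes, which drive mitosis, 1 lay above a log2 change of 0, against 48.4% of all genes, and the median was -0.23. EdgeR called 0, and 8 were lower at an unadjusted p under 0.05, a level that 6.78% of all genes reached, both directions together. The block called TPX2 (-0.28), PTTG1 (-0.35) and NEK2 (-0.36) lower. Of 28 genes of the ATF4 stress response 3 lay above 0, the median was -0.22, and 8 were lower at an unadjusted p under 0.05. PSAT1, an enzyme of serine synthesis, had 318, 284 and 299 CPM at day 3, against 418, 414 and 389 CPM at day 0 (edgeR adjusted p = 0.0739; 0.00153 with the block). MTHFD2 and CEBPG were the other members called lower with the block. Of 20 MHC class I genes 17 lay above 0, with a median of 0.26, 0 calls and 5 higher at an unadjusted p under 0.05. B2M, the class I light chain, had 531, 581 and 537 CPM at day 3, against 429, 406 and 408 CPM at day 0 (log2 change 0.41 ± 0.105, edgeR adjusted p = 0.172; 0.00807 with the block). HLA-C (0.50) and TAPBPL (0.46) were also called with the block. Of 17 interferon response genes 14 lay above 0 with a median of 0.15, and 0 were called with 6 higher at an unadjusted p under 0.05. The block called IFI6 (1.23), ISG15 (0.70) and BST2 (0.36) higher. The summed level of the G2/M list overlapped between the groups, at 3804 to 4599 CPM at day 3 against 4488 to 5150 CPM at day 0. Summed levels of the ATF4, MHC class I and interferon lists did not overlap.

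Known targets shared with p53 were mostly flat. Of 30 tested, 14 lay above 0, against 48.4% of all genes, the median was -0.03, and edgeR called 0. At an unadjusted p under 0.05, 3 were higher and 1 lower, beside 6.78% of all genes, both directions together. CDKN1A, the cell cycle inhibitor p21, had 12.7, 9.5 and 7.85 CPM at day 3, against 6.8, 6.14 and 5.42 CPM at day 0. The groups were separate, and its log2 change was 0.73 ± 0.188 (edgeR adjusted p = 0.175; 0.0113 with the block). The block also called CD82 (0.78) and PLK2 (1.12) higher. Erythroid markers had the highest list median, 0.77 over 9 genes, with 0 called, 0 at an unadjusted p under 0.05 and 0 with the block. Their summed level ran from 9.91 to 77.7 CPM at day 3, against 8.51 to 75.6 CPM at day 0, the spread by replicate number given above for HBG2. Fibroblast markers summed to 36.8 to 44.3 CPM at day 3, against 28.8 to 37.7 CPM at day 0, and endothelial ones to 10.6 to 14.5 CPM, against 13.1 to 17.6 CPM, with 0 called in either list. Of 7 fibroblast markers 3 were higher and 1 lower at an unadjusted p under 0.05, and the block called COL1A1 (0.66) higher and PDGFRA (-0.70) lower. Their part in the results was not tested.

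Days 1 and 6 of the same line place day 3 within the course. They share the day 3 or day 0 libraries with the comparison above, so the values stand side by side and are not counted against it. At day 3 against day 1 edgeR called 22 of 15056 genes (0.146%), 21 higher (0.139%) and 1 lower (0.00664%), and with the block 290 (1.93%), 246 higher (1.63%) and 44 lower (0.292%). The count was 9 without replicate 3 of day 1, and 7 and 8 without replicates 2 and 3 of day 3. Among them SLC16A12 had 0.234, 0.375 and 0 CPM at day 1 and was 3.09 ± 0.452 (log2) higher at day 3 (edgeR adjusted p = 0.0273). GPC4 had 0.39, 1.45 and 0.79 CPM at day 1 and rose by 2.98 ± 0.364 (edgeR adjusted p = 0.00615), and GSDMA, at 0.312, 0.609 and 0.658 CPM at day 1, by 2.84 ± 0.294 (edgeR adjusted p = 0.00191). CAMK2A, a calmodulin-dependent kinase subunit, LOC101928882 and TSPAN18, a tetraspanin, rose by 2.79, 2.45 and 2.43, and PCDH20 fell by 0.84. Leaving out 1 library ended the calls of SLC16A12, CAMK2A, LOC101928882, TSPAN18 and PCDH20 at least once, and not those of GPC4 and GSDMA. Of the 4 squamous differentiation genes called above, KRT13 and S100A16 were called against day 1 as well, and EMP1 and S100A14 were not (edgeR adjusted p = 0.247 and 0.108). KRT13 had 11.2, 9 and 7.77 CPM at day 1 and rose by 1.53 ± 0.249 (edgeR adjusted p = 0.0297), and S100A16, at 12.9, 15.5 and 10.7 CPM, by 1.45 ± 0.17 (edgeR adjusted p = 0.00495).

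C9 had most of its rise by day 1. It had 3.44, 3.51 and 3.82 CPM at day 1, and its day 3 level was 0.16 ± 0.237 higher on the log2 scale (edgeR adjusted p = 0.998). In IL23R replicate 2 of day 1 stood apart, with 5, 36.8 and 12.2 CPM in replicates 1, 2 and 3. ATP1B2 likewise had a high replicate 2, with 24.1, 145 and 34.6 CPM at day 1. In replicates 1 and 3 both IL23R and ATP1B2 had most of their rise in CPM after day 1. On the log2 scale, over the 3 replicates, day 1 lay above day 0 by 6.80 in IL23R and 2.56 in ATP1B2. Day 3 lay above day 1 by 0.49 in IL23R and 1.20 in ATP1B2, so on that scale most of the rise came by day 1. The day 1 spread enters the SE of both at day 3 against day 0, as the model holds day 1. The day 3 replicates of these genes lay close together, as the plot of 12 genes over the course shows.

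At day 6 against day 3 edgeR called 0 genes (0%), with 156 at an unadjusted p under 0.05. DESeq2 called 1, GPC4, and the block called SPRR3 (1.01) and GPC4 (1.41) higher (0.0133%). GPC4 had 6.55, 8 and 8.24 CPM at day 3 and 19.4, 21.8 and 18.3 CPM at day 6. SPRR3, a cornified envelope precursor, had 7.69, 15.2 and 13.4 CPM at day 3 and 16.8, 29.5 and 26.9 CPM at day 6. In CALHM3 and HTR3E all day 6 libraries lay below all day 3 libraries, and in neither was the difference called. At day 6 CALHM3 had 2.87, 3.2 and 3.44 CPM, and HTR3E had 46.5, 55.6 and 50.5 CPM.

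**Figure D4:**
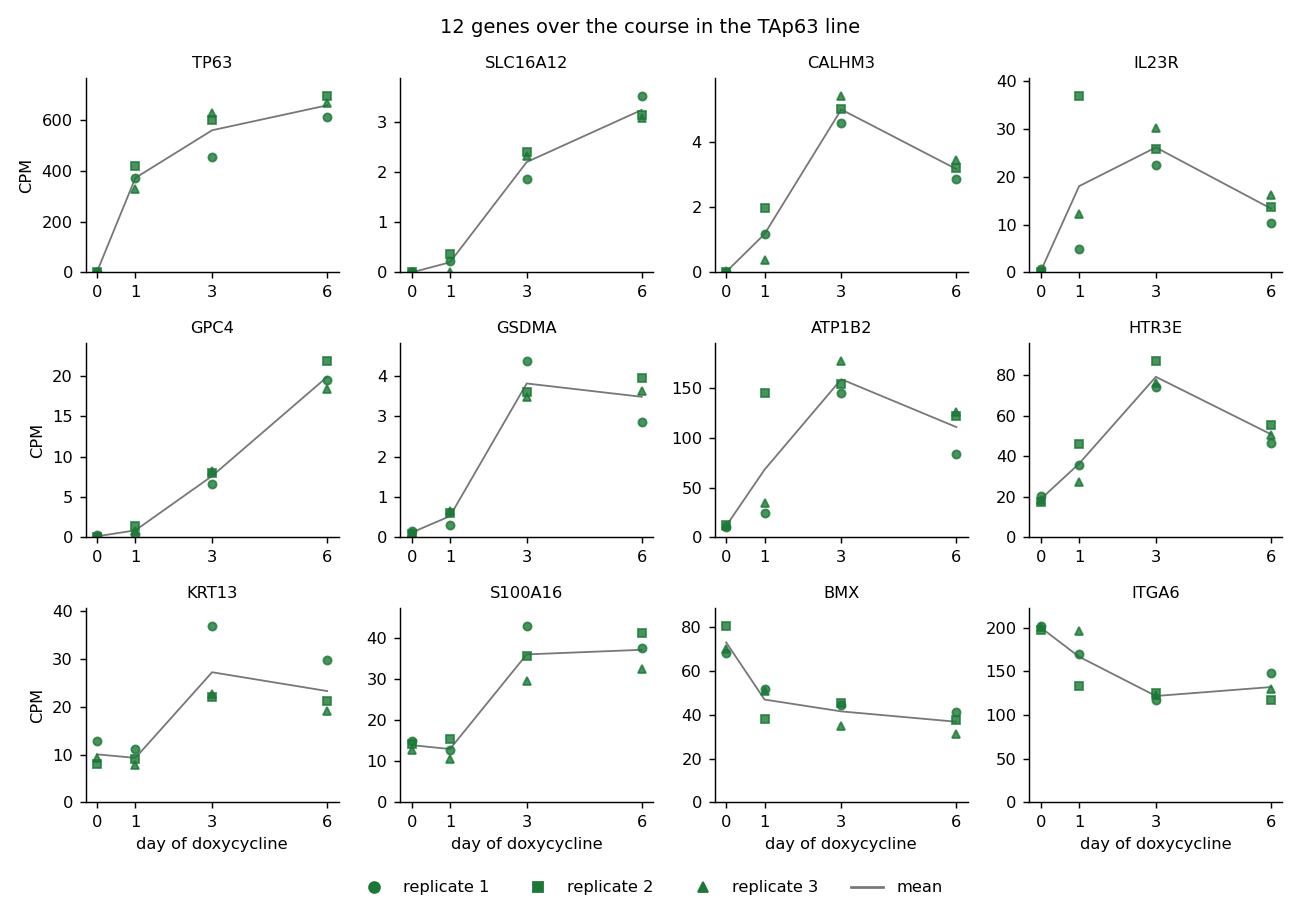
CPM of 12 genes (y axes, from 0) in the TAp63 line by day of doxycycline (x axis), with 1 symbol per library by replicate number and a line through the means. IL23R and ATP1B2 have a high replicate 2 at day 1 (36.8 and 145 CPM), and GPC4 goes on to 18.3 to 21.8 CPM at day 6.

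The ΔNp63 line, in libraries of its own, was set beside it at day 3. In a model of the 12 libraries of days 0 and 3 in both lines, 614 genes were called higher (3.99%) and 221 lower (1.44%) in the ΔNp63 line. In that same model 120 (0.781%) and 13 (0.0846%) were called in the TAp63 line. Of the 78 genes called higher above, 67 were called higher with ΔNp63 in that model, which is 85.9% of the 78 and 10.9% of the 614. All 6 lower genes were called lower there, 2.71% of the 221. A log2 change above 0 was found for 48.6% of all genes in the ΔNp63 line. Of the 11 others C9 had a change of 0.22 with ΔNp63, ANKS4B one of -0.65 and TSPAN18 one of 0.75 on the log2 scale. They were named after their values were seen, and for none of the 3 was the difference between the lines called (edgeR adjusted p = 0.803, 0.0855 and 0.924). With the block the difference was called for ANKS4B (adjusted p = 0.00459).

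The difference between the lines, TAp63 minus ΔNp63, was called for 3 of 15372 genes (0.0195%), all lower, and with the block for 222 (1.44%), 74 higher (0.481%) and 148 lower (0.963%). CPM in both lines are here on the scale of that model. PADI3, which converts arginine to citrulline in proteins of the hair follicle (chromosome 1, 17249098 to 17284232), had 4.38, 6.44 and 7.46 CPM at day 3, against 4.94, 2.59 and 3.1 CPM at day 0, in the TAp63 line. In the ΔNp63 line it had 99.7, 90.8 and 90.7 CPM at day 3, against 2.97, 3.05 and 3.07 CPM at day 0. The difference was -4.05 ± 0.297 in log2 (edgeR adjusted p = 8.76e-05), although PADI3 was called higher with TAp63 under the block (0.92, adjusted p = 0.0363). TGFBI, an extracellular matrix protein (chromosome 5, 136028988 to 136063818), had 2.19, 2.07 and 3.21 CPM at day 3, against 1.7, 1.58 and 1.89 CPM at day 0, in the TAp63 line. In the ΔNp63 line it had 18.7, 21.6 and 18.4 CPM at day 3, against 1.16, 1.7 and 2.22 CPM at day 0, and the difference was -3.03 ± 0.33 (edgeR adjusted p = 0.00436). FXYD3, a small membrane protein that modulates Na,K-ATPase (chromosome 19, 35115823 to 35124324), had 1.04, 1.89 and 1.67 CPM at day 3, against 3.4, 1.73 and 2.1 CPM at day 0, in the TAp63 line. In the ΔNp63 line it had 10.4, 13 and 8.76 CPM at day 3, against 1.16, 2.26 and 1.63 CPM at day 0. Its difference of -3.14 ± 0.44 (edgeR adjusted p = 0.044) lost its call without any 1 of the 12 libraries.

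Among keratins, none had a called difference between the lines without the block, and KRT5, KRT13 and KRT15 had one with it. KRT5 had 7.98, 7.74 and 6.94 CPM at day 3 in the ΔNp63 line, against 0.661, 0.735 and 0.522 CPM at day 0, and its difference between the lines was -3.49 ± 0.513 (edgeR adjusted p = 0.0532; 0.00175 with the block). KRT13 had 81.2, 55.6 and 54.7 CPM at day 3 in the ΔNp63 line, against 10.9, 6.9 and 7.44 CPM at day 0, and its difference was -1.45 ± 0.364 (edgeR adjusted p = 0.378; 6.27e-06 with the block). KRT15 had a difference of -1.16 ± 0.402 (edgeR adjusted p = 0.803; 0.00154 with the block). SLC16A12 had 1.17, 1.18 and 1.69 CPM at day 3 in the ΔNp63 line, against 0.0826, 0.113 and 0.0652 CPM at day 0, and with 0 counts at day 0 in the TAp63 line its fitted difference depends on the prior count and is not given. TP63 rose by 7.65 with ΔNp63, and its difference was -0.07 ± 0.246 (edgeR adjusted p = 1).

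**Figure D5:**
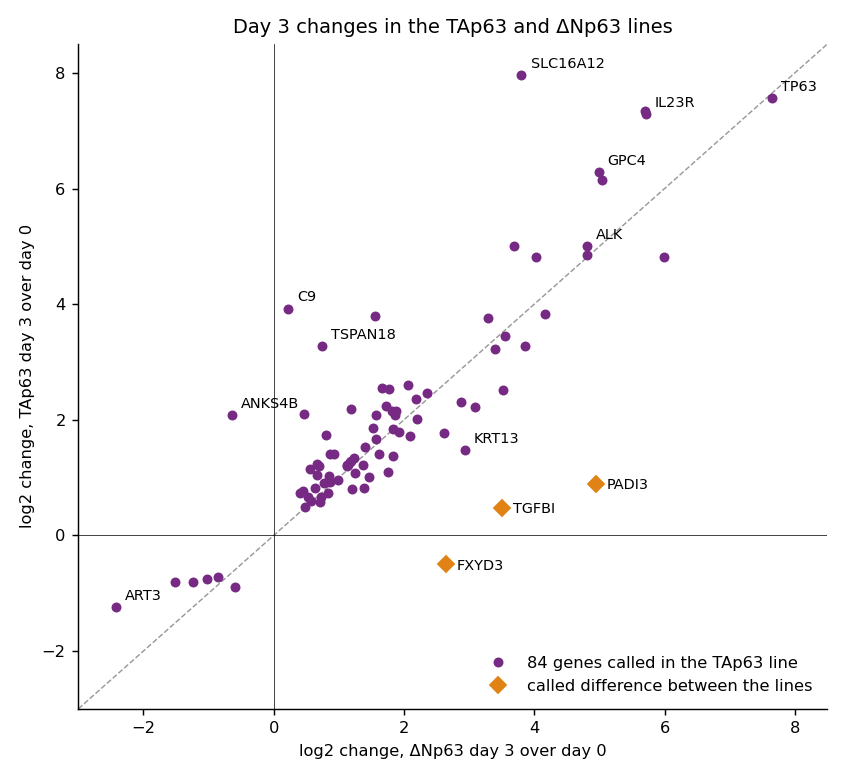
Log2 change at day 3 in the TAp63 line (y axis) and the ΔNp63 line (x axis) for the 84 genes called in the TAp63 line, which were chosen on the y axis value, and for the 3 genes with a called difference between the lines (diamonds). SLC16A12 is drawn at a fitted value that depends on the prior count. The dashed line marks equal changes; PADI3, TGFBI and FXYD3 lie below it, with differences of -4.05, -3.03 and -3.14.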

How the data were processed

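Total RNA was extracted in TRIzol and sequenced from NEBNext Ultra libraries on a NextSeq, per the labels' protocols. The aligner was HISAT2 2.1.0, the counter featureCounts 1.6.1 and the build hg38, per the submitters' processing notes, which also name DESeq2 without a version. The deposited values are raw counts, made with featureCounts 2.0.0, per the file headers. Its options took read pairs as fragments and whole transcripts as features of the UCSC refGene annotation, introns included, without a strand option, so values are uncertain for genes that overlap another: ALK, ART3, CDKN1A, CRYM, HTR3E, ITGA6, POU2F3, SLC16A12, SYP and TSPAN18 among those named. Near-identical copies such as HBG1 and HBG2 are uncertain too.

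The deposited table holds counts of 28278 genes, 6507 of them at 0 in all 12 TAp63 libraries. The tests ran in edgeR 4.0.16 under R 4.3.3, with TMM scaling, the filterByExpr default by group and quasi-likelihood fits (glmQLFit, glmQLFTest), and, as an alternative, DESeq2 1.42.0. A single model held the 12 TAp63 libraries, each day having its own mean (8 residual degrees of freedom), and the difference between the lines came from the 12 libraries of days 0 and 3. CPM use TMM-adjusted library sizes. The SE is the absolute log2 change over the square root of F, and is approximate near 0 counts. Bounds set a group at 0 to 3 counts, and intervals cover counting error only. The fits were tested on simulated data drawn without a replicate effect, so that test does not bear on leaving out the replicate block. No pair of replicates of the 2 groups agreed within sampling noise (chi-square per degree of freedom 5.05 or more).

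The comparison, its tests and the 28 gene lists were chosen with earlier results of these data known. Genes are named by a rule: TP63, the 15 largest rises and up to 10 falls among called genes with no overlap between groups and at least 2 CPM in the higher one, every called list member, 9 fixed genes, and up to 6 each way in the other comparisons. Members called with the block alone were named after their values were seen. Log2 changes in brackets after such members are those of the model without the block. The exceptions are PADI3 in the section on both lines, and SPRR3 and GPC4 at day 6 against day 3, whose values are the block's. Replicate numbers come from the titles. Over 11332 genes, deviations of same-numbered day 3 and day 0 libraries correlated at 0.424 to 0.655, and those of other numbers at -0.599 to 0.174. Over all TAp63 days every same-numbered pair lay at 0.328 or above and, over the 4 groups of both lines, at 0.274 or above. The numbers were therefore taken to pair the samples in the block runs. The main models leave this pairing out, so their SEs, counts and missing calls do not take it into account. Some results are not reported here.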

Additional observations from a re-analysis of the deposited data

Results flagged for a closer look

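The day 3 response differed between the lines for 3 genes by the test of the difference itself, TAp63 minus ΔNp63. PADI3 had a difference of -4.05, TGFBI of -3.03 and FXYD3 of -3.14 on the log2 scale, each lower with TAp63 (edgeR adjusted p = 8.76e-05, 0.00436 and 0.044). With any 1 of the 12 libraries left out PADI3 and TGFBI kept the call and FXYD3 lost it.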

How the results depend on the processing

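The day 3 against day 0 count of 84 became 421 with the replicate block, 722 with the block and the 23 libraries without replicate 3 of ΔNp63 day 1, 151 with those 23 libraries, and 159 with DESeq2. It was 133 in the model of days 0 and 3 of both lines, an alternative chosen after seeing the data, and 31 to 68 with 1 library left out. The day 3 against day 1 count of 22 became 290 with the block, 513 with the block and 23 libraries, 74 with 23 libraries, 99 with DESeq2, 9 with the 6 libraries compared, and 7 to 28 with 1 left out. The day 6 against day 3 count of 0 became 2 with the block, 5 with the block and 23 libraries and 1 with DESeq2, and stayed at 0 with 1 left out. The count of 3 for the difference between the lines became 222 with the block, 149 with the block and 23 libraries, 7 with all 24 libraries, 20 with 23, 48 with DESeq2, 6 without a filter and 2 to 4 with 1 left out. Median-ratio size factors moved no count by over 1.5 times. The cause of these moves was not tested. NEUROD1 at day 3 against day 0 changed sign, with 0.0164 under the block, 0.0115 under the block and 23 libraries, and -0.301 to 0.0412 with 1 library left out. Of the 30 named genes called at day 3 against day 0, 18 kept the call under every alternative run and 11 lost it without at least 1 library; the block ended no call among the 84. Genes with under 10 counts at day 0 have folds that depth limits, and KRT5 was too low to test.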

Other observations

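Among the genes called higher at day 3 and not described above, chosen here after their values were seen, several encode cell surface or secreted proteins. CD55, which protects cells from complement, had 132, 114 and 119.6 CPM at day 3, against 73.4, 42.6 and 45.9 CPM at day 0 (log2 change 1.19 ± 0.193, edgeR adjusted p = 0.0105). TMPRSS11E, a serine protease, had 132, 122 and 109 CPM at day 3, against 54.9, 49 and 52.7 CPM at day 0 (log2 change 1.22 ± 0.132, edgeR adjusted p = 0.000446). CD63, a tetraspanin, had 264, 257 and 266 CPM at day 3, against 152, 165 and 178 CPM at day 0 (log2 change 0.67 ± 0.127, edgeR adjusted p = 0.03). None of the 3 overlapped between the groups. C1R, a complement protease, rose by 0.67, the folate receptor FOLR1 by 2.61 and galectin-1, LGALS1, by 1.22 on the log2 scale.

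ZCCHC24 had 11.6, 39.1 and 16.7 CPM at day 1, with replicate 2 above the others, and 53.7, 47.7 and 51.5 CPM at day 3. The cytidine deaminase gene APOBEC3C rose by 2.30 and the ribonuclease genes RNASE1 and RNASE6 by 2.21 and 2.51 on the log2 scale at day 3.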
